A study of Mus musculus with 6 samples.

Results

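Aminoacyl-tRNA synthetases are the enzymes that join each amino acid to its transfer RNA. The genes described here were chosen by symbol in the platform annotation: every gene named as a synthetase for an amino acid, and the genes of the 3 non-enzyme subunits of the multi-synthetase complex, Aimp1, Aimp2 and Eef1e1. Of 19939 genes tested, 38 met that rule on a probe set assigned to a single gene, namely 17 cytosolic enzymes, 16 mitochondrial enzymes, 2 enzymes that serve both compartments from a single gene (Gars and Kars) and the 3 scaffold subunits. Aars had no probe set with a single gene here and was not analysed.

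The cells were Melan-Ink4a, an immortal line of skin melanocytes of strain C57BL/6J. The labels give the genotype as Ink4a-ARF1 null, a loss at a tumour suppressor locus that both groups share, since all samples come from this line. In 1 group the cells received 10 nM NRG1-b1 for 21 days. NRG1 (neuregulin 1) is a growth factor that signals through the receptor ERBB3. The other group was left untreated, with no time in culture given. The treatment field of its samples carries the same NRG1 text as that of the treated samples, so the grouping rests on the titles and the design text. The medium of both groups held 200 nM TPA, a phorbol ester, with cholera toxin at 200 pM. RNA of cells at 90% confluence was hybridised to Affymetrix Mouse Gene 1.0 ST arrays, 3 per group. The comparison asks how prolonged NRG1 stimulation alters gene expression in melanocytes. Nothing in the labels ties the 3 arrays of a group to separate cultures. The p-values therefore rest on the spread among these samples alone, and that spread may be technical.

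Cells keep separate sets of synthetases for the cytosol and for the mitochondrion, and nearly all mitochondrial enzymes are encoded by their own nuclear genes, conventionally marked with a final 2. In the cytosol, several synthetases assemble with AIMP1, AIMP2 and EEF1E1 into the multi-synthetase complex, while others work free of it. Several cytosolic synthetase genes are known targets of ATF4, the transcription factor induced when amino acids are short or when kinases phosphorylate the initiation factor eIF2alpha.

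Array medians over all probe sets lay between 6.99 and 7.07 on the log2 scale, and the correlation over tested genes was 0.996 to 0.997 within groups and 0.981 to 0.986 between them. The 7 melanocyte markers examined all stood at or above the 98.1 percentile of level among tested genes, and 6 of them fell with NRG1. Of 13 markers of keratinocytes, fibroblasts and immune cells, 2 rose, the collagen gene Col1a1 (0.86 on the log2 scale) and Cd68 (0.23), and 11 were not called. The mean log2 value of these 13 markers was 6.18 to 6.24 in the NRG1 arrays and 6.12 to 6.25 in the untreated arrays. The part of such cells in the results was not tested. In bulk RNA, fewer expressing cells and less RNA per cell cannot be told apart.

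The cytosolic synthetases were mostly higher with NRG1 and the mitochondrial synthetases were not. A gene is said to rise or fall where limma's adjusted p was under 0.05, with Benjamini-Hochberg adjustment over all 19939 genes, and every change is the NRG1 mean minus the untreated mean in log2 units. The compartments are described by counts and medians, with no test of the difference between them as groups. They also differed in level, with a median at the 83.9 percentile of tested genes for the cytosolic enzymes and 57.1 for the mitochondrial enzymes. Array signals near background are compressed, and whether this understated the mitochondrial changes was not tested. Among the 17 cytosolic enzymes 12 rose, 1 fell and 4 were not called, with a median change of 0.30. Among the 16 mitochondrial enzymes 0 rose, 3 fell and 13 were not called, with a median change of 0.0065 (limma; at an unadjusted p under 0.05, 3 were higher and 3 lower). Over all genes tested, 12.3% rose and 8.56% fell, 20.9% were called in either direction, and the median change was -0.029. Across all 38 genes, 14 rose and 4 fell, that is 36.8% and 10.5%, so the share of rises lay above the background and the share of falls close to it. That background includes many dim genes. With genes below the median level left out, 26% of the 9970 genes left rose and 17.8% fell. Of the 35 members left, 16 rose and 6 fell. With each array centred on its median the split over the 38 genes was 15 rises and 1 fall. The changes were small, from 1.20-fold to 1.51-fold among the rises and from 1.15-fold to 1.21-fold among the falls.

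**Figure D1:**
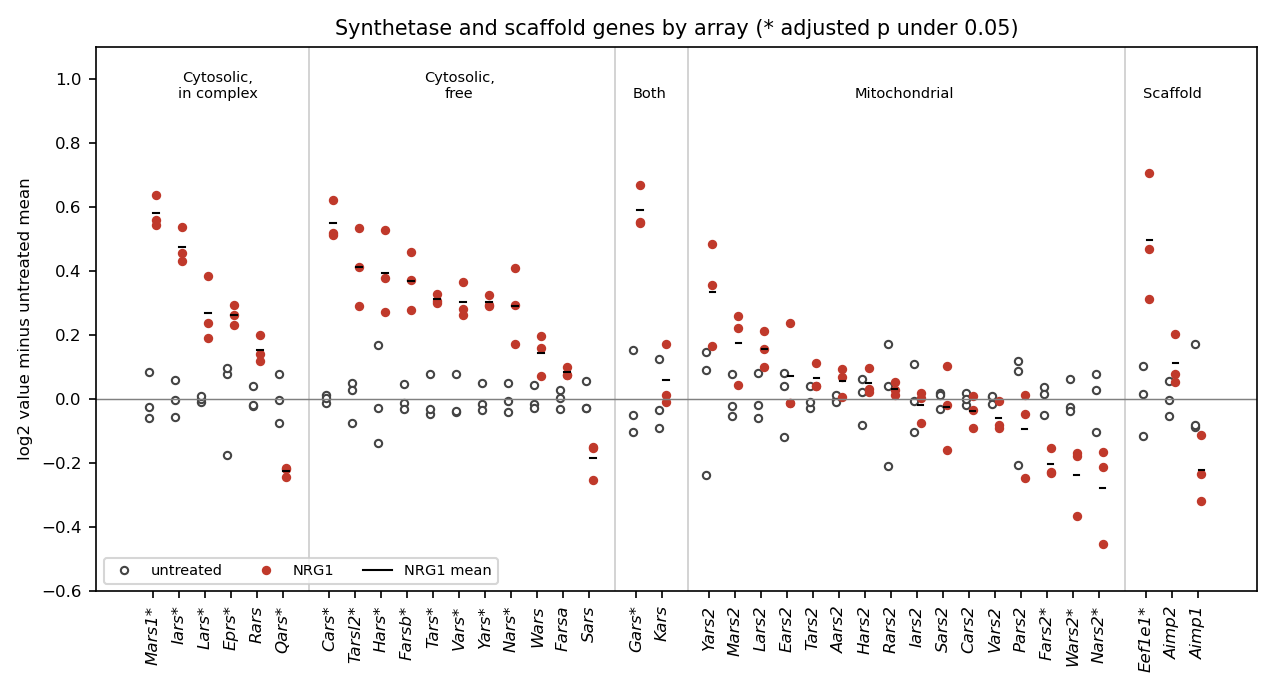
Log2 value of each of the 38 genes in each of the 6 arrays, minus that gene's untreated mean, with open circles for untreated arrays, filled circles for NRG1 arrays and a bar for the NRG1 mean; asterisks mark adjusted p under 0.05 (limma). Most cytosolic enzymes have their 3 NRG1 points above their 3 untreated points, while the mitochondrial enzymes scatter around 0.

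Of the cytosolic enzymes of the multi-synthetase complex, 4 of 6 measured rose, 1 fell and 1 was not called. The largest rise was that of Mars1, which charges methionine for both initiation and elongation. Mars1 was at 9.22, 9.32 and 9.24 in the NRG1 arrays and at 8.62, 8.76 and 8.66 in the untreated arrays. The groups did not overlap, and the change was 0.58 ± 0.064 (SE), or 1.50-fold (limma, adjusted p = 1.00e-04). Iars, the isoleucine enzyme, was at 10.09, 10.01 and 9.99 with NRG1 and at 9.55, 9.61 and 9.50 without. Every NRG1 array was above every untreated array, with a change of 0.47 ± 0.062 (SE; limma, adjusted p = 0.000335). A second probe set for Iars gave 0.62 ± 0.078 (SE), also higher in all 3 NRG1 arrays.

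Lars, the leucine enzyme, which also takes part in leucine sensing upstream of mTORC1, rose by 0.27 ± 0.066 (SE; limma, adjusted p = 0.0153). Its call ended when replicate 1 of either group was left out (NRG1, adjusted p = 0.067; untreated, 0.0566), in a range from 0.00215 to 0.067 over 14 alternative settings. Eprs, a fused enzyme for both glutamate and proline, was at 10.30, 10.24 and 10.27 with NRG1 and at 10.09, 10.11 and 9.83 without. Untreated replicate 3 stood below the other two of its group. The change in Eprs was 0.26 ± 0.079 (SE; limma, adjusted p = 0.0398), and 8 of 14 alternatives ended the call, with adjusted p up to 0.112 and a change of 0.18 without untreated replicate 3. Rars, the arginine enzyme, was 0.15 higher and not called (limma, adjusted p = 0.0983).

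Qars went the other way. It encodes the glutamine enzyme and was at 10.05, 10.05 and 10.02 with NRG1 and at 10.19, 10.34 and 10.26 in untreated cells. The groups did not overlap. Qars fell by 0.23 on the log2 scale (limma, adjusted p = 0.0267). That call ended under 7 of 14 alternatives, among them centring on the array median (adjusted p = 0.0689) and the fits without NRG1 replicate 1, 2 or 3 or without untreated replicate 2 or 3, in a range from 0.00272 to 0.086.

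The cytosolic enzymes that work outside the complex rose in 8 of 11 cases and fell in 0, with a median change of 0.30. Cars, the cysteine enzyme, was at 9.26, 9.15 and 9.16 with NRG1 and at 8.63, 8.65 and 8.64 without. The untreated arrays were close to identical, and the change was 0.55 ± 0.06 (SE), or 1.46-fold (limma, adjusted p = 8.69e-05). Threonine has a pair of cytosolic enzymes, Tars and the less studied Tarsl2, and both rose. Tarsl2 was at 6.48, 6.23 and 6.35 with NRG1 and at 5.99, 5.97 and 5.86 without, a change of 0.41 ± 0.075 (SE; limma, adjusted p = 0.0028). Its level was under the median of the tested genes (7.17), where array signals are compressed and a change can be understated. The mean of Tarsl2, 6.15 (the 28.6 percentile), was also near those of the keratinocyte markers Krt5 (6.01) and Krt14 (6.03). Whether Tarsl2 is expressed above background here is therefore uncertain. Tars rose by 0.31 ± 0.061 (SE; limma, adjusted p = 0.00426), with NRG1 arrays at 8.61 to 8.63 and untreated arrays at 8.26 to 8.38.

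Hars, the histidine enzyme, was at 8.87, 8.61 and 8.72 with NRG1 and at 8.20, 8.51 and 8.31 without. The spread in both groups was wide for this family and the nearest arrays were NRG1 replicate 2 and untreated replicate 2. The change in Hars was 0.39 ± 0.092 (SE; limma, adjusted p = 0.0118), lost without untreated replicate 1 (adjusted p = 0.0522). Phenylalanine needs 2 different subunits, the catalytic alpha chain from Farsa and the beta chain from Farsb. Farsb was at 10.08, 9.90 and 9.99 with NRG1 and at 9.61, 9.66 and 9.59 without, and rose by 0.37 ± 0.066 (SE; limma, adjusted p = 0.00251). Farsa was at 8.27, 8.30 and 8.27 with NRG1 and at 8.17, 8.23 and 8.20 without, a difference of 0.083 that was not called (limma, adjusted p = 0.362). Whether the changes of the 2 subunits differed was not tested.

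Vars (valine) and Yars (tyrosine) each rose by 0.30, and Nars (asparagine) by 0.29. Nars was at 11.15, 10.91 and 11.03 with NRG1 and at 10.70, 10.79 and 10.73 without. Its call ended without NRG1 replicate 1 or untreated replicate 1 (adjusted p = 0.0665 and 0.0664). Wars, the tryptophan enzyme, which is also induced by interferon, was at 9.27, 9.23 and 9.15 with NRG1 and at 9.06, 9.12 and 9.05 without, and was not called (limma, adjusted p = 0.14). Sars, the serine enzyme, was 0.19 lower and not called (limma, adjusted p = 0.06), although 5 of 14 alternatives called it (adjusted p from 0.00739 to 0.192). Sars and Qars were the 2 cytosolic enzymes with a difference below 0.

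Of the 2 genes that supply both compartments, Gars had the largest change among the 38 genes and Kars was not called. Gars, the glycine enzyme, was at 10.96, 10.84 and 10.84 with NRG1 and at 10.19, 10.44 and 10.24 without. The lowest NRG1 array was above the highest untreated array, and Gars rose by 0.59 ± 0.078 (SE), or 1.51-fold (limma, adjusted p = 0.000339). Kars, the lysine enzyme and a member of the complex, was at 9.06, 8.90 and 8.88 with NRG1 and at 8.80, 9.02 and 8.86 without. The groups overlapped, and the difference of 0.058 ± 0.077 (SE) was not called (limma, adjusted p = 0.671).

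The scaffold subunits did not move together. Eef1e1, also known as AIMP3 or p18, was at 9.71, 9.31 and 9.47 with NRG1 and at 9.01, 9.10 and 8.88 without. It rose by 0.50 ± 0.1 (SE; limma, adjusted p = 0.00515), with NRG1 replicate 1 well above the rest. Aimp2, which holds the complex together, was 0.11 higher (limma, adjusted p = 0.283), and Aimp1, whose product is also secreted as a cytokine precursor, was 0.22 lower (adjusted p = 0.101). Neither was called, although 3 of 14 alternatives called Aimp1. Of the 10 measured subunits of the complex, Kars and the scaffolds included, 5 rose, 1 fell and 4 were not called.

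The synthetases fall into class I and class II by the fold of their catalytic domain, a division unrelated to compartment. Of 18 class I enzymes 6 rose and 2 fell, with a median change of 0.15, and of 16 class II enzymes 6 rose and 2 fell, with a median of 0.061. Eprs carries a domain of each class and was counted in neither.

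Promoter windows from RefSeq (build GRCm38.p6, 250 bases before to 50 after an annotated start) were matched to 29 of the 38 genes, and 3 short elements were searched on both strands. The first, TGATGNAA, is the composite element bound by ATF4 with C/EBP proteins. It was in 4 of the 29 genes, Gars, Iars, Tars and Yars, against 4.51% of the 27025 genes with a window. All 4 are among the 9 rising genes with a window. The 4 falling genes, the 16 genes not called and the 14 mitochondrial enzymes with a window held no match. At a share of 4.51%, sets of those sizes would often hold no match, so these absences do not set them apart from all genes. Most of the mitochondrial windows, and that of Yars, were not at the gene's outermost annotated start, whereas those of Gars, Iars and Tars were. A match describes the letters only, with no binding measured here. The sequences are shown because these promoters share that element, which is in capitals. Of its holders, Gars (0.59) and Iars (0.47) were among the larger rises, while Tars (0.31) and Yars (0.30) rose less. The windows of Mars1 (0.58), Eef1e1 (0.50), Tarsl2 (0.41), Farsb (0.37) and Eprs (0.26), which also rose, held no match.

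Gars, chr6:55037881-55038030, plus strand: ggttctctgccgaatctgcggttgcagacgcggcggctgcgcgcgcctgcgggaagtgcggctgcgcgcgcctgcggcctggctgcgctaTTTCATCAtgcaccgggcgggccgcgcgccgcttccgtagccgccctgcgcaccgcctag
Iars, chr13:49682010-49682159, plus strand: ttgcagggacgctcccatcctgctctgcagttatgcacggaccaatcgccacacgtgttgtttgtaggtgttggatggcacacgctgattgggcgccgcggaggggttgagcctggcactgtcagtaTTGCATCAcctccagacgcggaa
Tars, chr15:11399629-11399778, minus strand: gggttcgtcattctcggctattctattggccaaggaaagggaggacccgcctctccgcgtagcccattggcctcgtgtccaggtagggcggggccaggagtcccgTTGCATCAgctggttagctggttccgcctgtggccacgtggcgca
Yars, chr4:129189895-129189924, plus strand: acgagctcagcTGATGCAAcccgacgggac

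Each sequence is written 5′ to 3′ along the gene. Those of Gars, Iars and Tars run from 120 bases before to 30 bases after the annotated start, and that of Yars holds the match with 11 bases on each side. The element reads on the reverse strand in Gars, Iars and Tars and on the forward strand in Yars. It begins 30 bases before the start in Gars and 15 bases before it in Tars, and 7 and 3 bases after it in Iars and Yars. The second element, CACGTG, the E-box bound by MYC and by the MITF family, was in 4 of the 29 genes, namely Iars, Tars and Farsb, which rose, and the mitochondrial Ears2, which was not called, against 8.09% of all genes. The third, CCGGAAG, a core bound by ETS factors, was in 11 of the 29 against 9.93% of all, in 2 of the 9 rising genes, 0 of the 4 falling genes and 9 of the 16 genes not called. In 0 of the 31 windows of these genes did matches of different elements overlap.

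Among the mitochondrial enzymes the differences ran from -0.28 to 0.34, and 11 of 16 had overlapping groups. Over all genes 36.7% had groups that did not overlap. The 3 falls were those of Nars2, Wars2 and Fars2, the enzymes for asparagine, tryptophan and phenylalanine. Nars2 was at 7.15, 7.44 and 7.39 with NRG1 and at 7.50, 7.68 and 7.63 without, and fell by 0.28 (limma, adjusted p = 0.0449). Wars2 was at 7.61, 7.81 and 7.80 with NRG1 and at 7.95, 8.04 and 7.94 without, and fell by 0.24 (limma, adjusted p = 0.0385). Fars2 was at 8.05, 8.05 and 8.13 with NRG1 and at 8.32, 8.30 and 8.23 without, and fell by 0.20 (limma, adjusted p = 0.0353). In each the highest NRG1 array was below the lowest untreated array. All 3 calls lay close to the threshold, and 5 to 7 of 14 alternatives ended each of them, including the fits without NRG1 replicate 1 (adjusted p = 0.155, 0.152 and 0.117), without NRG1 replicate 3 (0.0644, 0.0579 and 0.0556) and without untreated replicate 2 (0.111, 0.0891 and 0.06), in that order of genes.

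The highest value in the mitochondrial set was that of Yars2, the tyrosine enzyme, which was at 7.88, 7.75 and 7.56 with NRG1 and at 7.49, 7.54 and 7.16 without. Its difference of 0.34 ± 0.111 (SE) missed the threshold (limma, adjusted p = 0.058), with the widest spread in the set, and 7 of 14 alternatives called it. Mars2 (methionine) was 0.18 higher and Lars2 (leucine) 0.16 higher, and neither was called (limma, adjusted p = 0.13 and 0.125). The other 10 enzymes, Ears2, Tars2, Aars2, Hars2, Rars2, Iars2, Sars2, Cars2, Vars2 and Pars2, lay between -0.094 and 0.070, all with adjusted p above 0.5.

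For most amino acids both enzymes were measured, so the change in the cytosolic gene could be set against that of its mitochondrial counterpart within the same arrays. In 14 of 16 pairs the change was larger in the cytosolic gene, with a median difference between the changes of 0.35. In 10 pairs the cytosolic-to-mitochondrial log ratio did not overlap between groups, each time higher with NRG1. Among single genes 36.7% did not overlap, and the share among other gene pairs was not examined, so the count of 10 has no background. Eprs and Fars2 each enter 2 pairs. An exact permutation test of a pair gave p = 0.1 (two-sided) in these 10, the smallest that 3 arrays against 3 allow, so no pair could pass at 0.05.

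**Figure D2:**
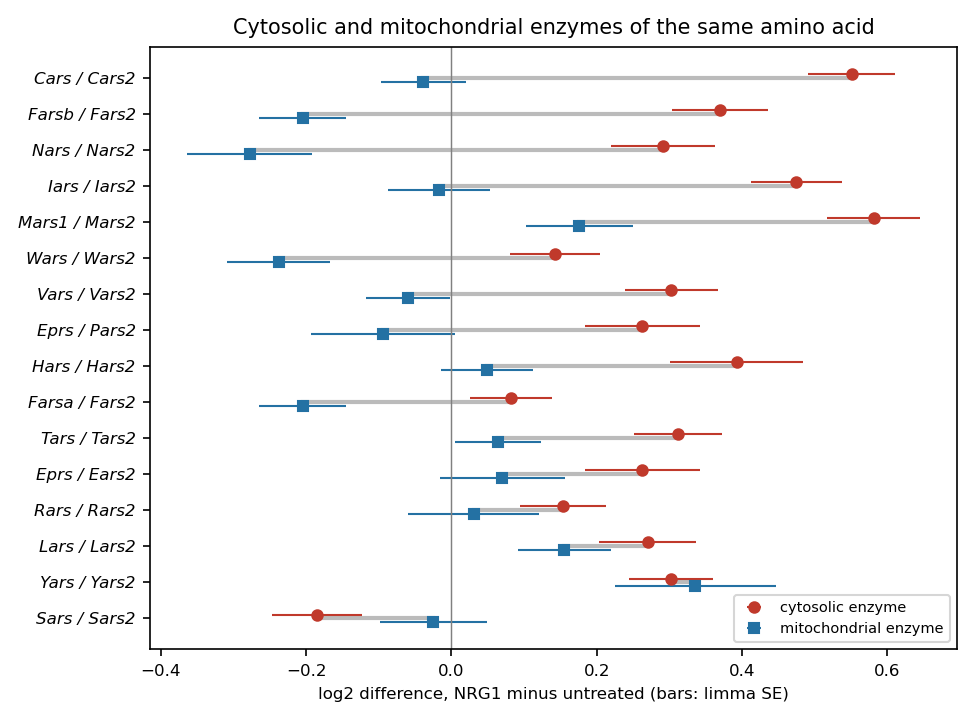
Log2 difference (NRG1 minus untreated) of the cytosolic enzyme (circles) and the mitochondrial enzyme (squares) of the same amino acid, with limma standard errors as bars, in 16 pairs ordered by the difference between the 2 changes. The circle lies to the right of the square in all pairs but Yars / Yars2 and Sars / Sars2.

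Cysteine gave the widest gap. Cars rose by 0.55, while Cars2 was at 7.53, 7.47 and 7.57 with NRG1 and at 7.58, 7.54 and 7.57 without, so the changes differed by 0.59 ± 0.047 (SE from the 6 arrays). Next came Farsb over Fars2 (0.57 ± 0.063) and Nars over Nars2 (0.57 ± 0.158), where the cytosolic gene rose and the mitochondrial gene fell. For isoleucine the gap was 0.49 ± 0.041, with Iars2 at 9.00, 9.01 and 8.92 in NRG1 arrays and at 8.99, 9.10 and 8.89 in untreated arrays. For methionine it was 0.41 ± 0.098, with Mars2 at 7.70, 7.67 and 7.49 against 7.52, 7.42 and 7.39, where the groups overlapped slightly. Wars over Wars2 gave 0.38 ± 0.094, although Wars itself was not called.

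The histidine pair shares a locus: Hars and Hars2 are neighbours in RefSeq whose annotated spans overlap by 4 bases. Hars2 was at 8.10, 8.09 and 8.16 with NRG1 and at 8.09, 8.13 and 7.98 without, which is no separation, and the changes of the 2 genes differed by 0.34 ± 0.111. Tyrosine showed no such gap, since Yars and Yars2 had changes of 0.30 and 0.34 (difference -0.033 ± 0.132). For serine the order was reversed, at -0.16 ± 0.109, with overlapping ratios.

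Mars1 overlaps Ddit3 by 71 bases in RefSeq. Ddit3 encodes CHOP, a transcription factor of the stress response, and the 2 neighbours moved in opposite directions. Ddit3 was at 7.76, 7.55 and 7.67 with NRG1 and at 8.02, 8.23 and 7.85 without, and fell by 0.38 (limma, adjusted p = 0.0191).

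The genes of other steps of translation moved in both directions. Of 8 cytosolic elongation factors 1 rose and 2 fell, with a median change of -0.11. Eif5a, whose product eases peptide bond formation at difficult sequences, rose by 0.48. Eef2, which translocates the ribosome, fell by 0.20, and Eefsec, which delivers selenocysteine, by 0.37. Of 10 mitochondrial translation factors 1 rose, the elongation factor gene Gfm1 (0.36), and 1 fell, the ribosome recycling factor gene Mrrf (-0.28), with a median of 0.0098.

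Among 11 genes of tRNA proofreading, mitochondrial glutamine charging, formylation and selenocysteine synthesis, 1 rose and 2 fell. Mitochondria charge glutamine in a roundabout way, by amidating a misacylated glutamate. The amidotransferase subunit gene Qrsl1 rose by 0.23 and its partner Gatb fell by 0.20 (limma, adjusted p = 0.0497). Pstk, a kinase in selenocysteine synthesis, fell by 0.20. Of 20 genes of tRNA transcription and maturation 1 rose, the RNase P subunit gene Rpp30 (0.48), and 2 fell, the RNA polymerase III repressor gene Maf1 (-0.24) and the tRNA splicing kinase gene Clp1 (-0.27). The shares called in these 4 lists lay between 15.0% and 37.5%, against 20.9% of all genes, in small lists.

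**Figure D3:**
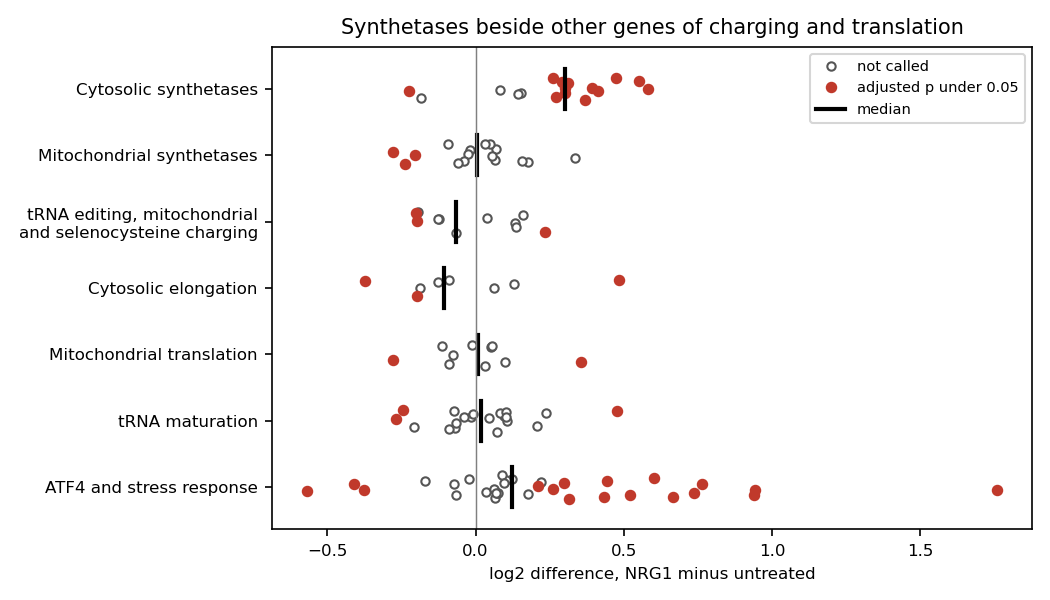
Log2 difference (NRG1 minus untreated) of each gene in 7 lists, with filled points for adjusted p under 0.05 (limma), open points for genes not called and a black bar for the median of each list. The cytosolic synthetases sit around 0.30, whereas the medians of the mitochondrial synthetases and of the 4 other translation lists lie between -0.11 and 0.018. The ATF4 list has a median of 0.12, with 26 of 33 genes above 0 and a range from -0.57 to 1.76.

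Of 33 genes measured outside the synthetases in the stress response that ATF4 carries, 14 rose and 3 fell, that is 42.4% and 9.09% against 12.3% and 8.56% of all genes. The median level of this list was at the 73.5 percentile of tested genes. With genes below the median level left out, 26% of the genes left rose and 17.8% fell. The list itself was not counted under that filter, so its shares above come from the unfiltered fit and are not matched to these. The difference was above 0 in 26 of the 33, with a median of 0.12. Atf4 itself was at 9.52, 9.47 and 9.43 with NRG1 and at 8.97, 9.01 and 8.89 without. The groups did not overlap and Atf4 rose by 0.52 ± 0.062 (SE; limma, adjusted p = 0.000163). Whether ATF4 had a part in the changes of the synthetase genes was not tested. Asns, which makes asparagine and is a classic ATF4 target, rose by 1.76, the transcription factor gene Atf3 and the glycine transporter gene Slc6a9 each by 0.94. In the other direction Slc3a2, the heavy chain of several amino acid exchangers, fell by 0.57 and Ddit3, described above, by 0.38. The cystine transporter gene Slc7a11 fell by 0.41, with overlapping groups and a low level (5.47, the 17.1 percentile). None of the genes of the 4 eIF2alpha kinases, Eif2ak1, Eif2ak2, Eif2ak3 and Eif2ak4, was called. The arrays measure their RNA only, not kinase activity or the phosphorylation of eIF2alpha.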

How the data were processed

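The authors' deposited table holds log2 values per probe set for 6 arrays, for which RMA and GCOS are named as tools, per the submitters' processing notes. Their versions and settings and the genome build: not given in the sources used here. Values from 2.34 to 14.6 showed a log2 scale. Array signals near background and saturation are compressed, which understates differences there. Arrays have no read depth, and 3 arrays per group limit the precision (median standard error 0.071).

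The platform annotation named the probe sets, and Entrez numbers linked them to current RefSeq symbols (GRCm38.p6). Of 35557 probe sets, 21789 had 1 gene, 1621 several and 12147 none. The brightest single-gene probe set per gene over the 6 arrays was tested, without a filter on level, with limma 3.58.1 in R 4.3.3 (2 group means, two-sided, Benjamini-Hochberg over 19939 genes, threshold 0.05). The members and lists were chosen with earlier results of these data known. Arrays are given in the order of replicates 1, 2 and 3. Per-array values are given for the 8 largest rises and up to 8 falls among called members and their counterparts in the other compartment, with others added after their values were seen. In the other lists up to 3 called genes per direction are named. Replicate numbers are not said to pair the arrays, and deviations of same-numbered arrays correlated at -0.095, -0.164 and 0.074.

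Data were simulated with each gene's own residual spread (10 simulations over 19939 genes, with 200 genes changed in each). On the log2 scale 23% of changes of 0.3, 70.6% of 0.5 and 97.1% of 1 were recovered, and 2.46% of calls were false. In the data 4168 genes were called, far more than 200, and the adjusted p depends on that share. These recoveries therefore need not hold for the data.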

Additional observations from a re-analysis of the deposited data

How the results depend on the processing

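Of the 14 rises, 10 were called under every one of the 14 alternatives run (13 for Tarsl2, which a filter on level removed): Mars1, Iars, Cars, Tarsl2, Farsb, Tars, Vars, Yars, Gars and Eef1e1. Of the 4 falls 0 were, and 5 to 7 alternatives ended each. With an array left out, 10 to 15 of the 38 genes rose and 0 to 2 fell (0 without NRG1 replicate 1, NRG1 replicate 3 or untreated replicate 2). The median change then ran from 0.27 to 0.33 in the cytosolic enzymes and from -0.028 to 0.024 in the mitochondrial enzymes. Centring on the array median left 15 rises and 1 fall, and the replicate block 14 rises and 1 fall. The labels do not say whether the replicate numbers pair the arrays. Quantile normalization over the tested genes, chosen after seeing the data, gave medians of 0.24 and -0.034, with 13 rises and 6 falls, and over all genes 2257 rises and 2396 falls against 2461 and 1707. Some values near 0 changed sign without being called: Ears2 without NRG1 replicate 2 (-0.014), Iars2 with centring (0.0067), without NRG1 replicate 3 (0.011) and without untreated replicate 2 (0.037), Rars2 without untreated replicate 3 (-0.075), and Sars2 without NRG1 replicate 3 (0.043). With an array left out these 4 ran from -0.014 to 0.11, -0.070 to 0.037, -0.075 to 0.12 and -0.089 to 0.043. Under quantile normalization over the tested genes Hars2 (-0.0075), Kars (-0.00044) and Rars2 (-0.019) did so. The causes were not tested. Every called change smaller than 0.3 among the 38 genes, those of Lars, Eprs, Nars and the 4 falls, lost its call under some alternative. Vars and Yars, at 0.30, kept theirs under all 14, while Hars, at 0.39, lost its call under 1. With 3 arrays per group, calls on changes below 0.3 thus depended on the processing or on single arrays.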
